A study of Mus musculus with 2 samples.

Results

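The 44 genes described here are interferon response and antigen presentation genes, taken by symbol from a list drawn up for this work, and all 44 were found among the 32285 genes of the deposited count matrices. They fall into 6 groups: 6 guanylate-binding proteins (the GBP group), 3 immunity-related GTPases (IRG), 5 regulators of transcription, 2 chemokines, 12 genes of class I antigen presentation, and 16 antiviral interferon-stimulated genes (the IFIT and ISG group). The cells came from the lung mesenchyme of mice carrying Lepr-CreERT2 and Rosa26-tdTomato, at an age of 8 to 10 weeks. The mice had received saline, or bleomycin, which damages the alveoli and is a common model of lung fibrosis. In both groups a tamoxifen-activated Cre made from the leptin receptor gene had marked cells with tdTomato for good, and live tdTomato-positive cells without CD45, EpCAM and CD31 at the surface were sorted, so only the Lepr-marked share of the lung mesenchyme is described. Each treatment had 1 library of single-cell RNA sequencing by the 10x Genomics 3' v3 chemistry. The number of mice per library, the bleomycin dose and the day of collection are not stated in the labels. With 1 library per treatment there is no spread between animals and no test of the treatment. Values are given for each library with 95% intervals in brackets, which cover counting error only.

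Interferons are secreted signals that cells answer through receptors coupled to JAK kinases and STAT factors. Type I interferons activate a complex that contains Stat2 and Irf9 and binds the interferon-stimulated response element (ISRE) in front of antiviral genes such as Isg15 and the Ifit genes. Interferon gamma acts through the gamma-activated site (GAS) and induces Irf1, which in turn acts on ISRE-like sites of the GBP, IRG and class I presentation genes. GBP and IRG proteins attack the vacuoles of intracellular microbes. The class I pathway cuts proteins in the immunoproteasome, moves peptides through the TAP transporter, and loads them on H2 heavy chains with B2m for display to CD8 T cells. Fibroblasts, like most nucleated cells, can respond to both kinds of interferon.

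The stretch before the annotated start of these genes shows where such motifs lie. In the RefSeq promoter table (GRCm38.p6, the build known as mm10) 35 of the 44 genes had an entry, and the 250 bases before the start were searched on both strands for the ISRE letters GAAANNGAAA (TTTCNNTTTC on the other strand) and the GAS letters TTCNNNGAA, which read the same on both strands. An ISRE match lay in 15 of the 35 and a GAS match in 7, with 4 genes holding both and 17 neither, and in 1 gene (Bst2) the matches overlapped. Of all 32851 promoters in the table, 2.98% held an ISRE match and 7.02% a GAS match. All 4 matched GBP genes (Gbp2, Gbp3, Gbp5 and Gbp7) and both matched IRG genes (Igtp and Irgm1) held an ISRE, against 5 of 12 IFIT and ISG genes and 2 of 11 class I genes. A match is a string of letters and not a shown binding site. Only exact letters were counted, so a gene without a match can hold a near one. The windows of H2-K1, H2-D1, H2-Q4 and H2-Q7 all held TTTCACTTCT, which is close to the ISRE letters and was not counted. The windows of 5 genes are printed because they stand for the groups whose levels differ most below and for the antiviral group, and because none overlaps an exon in the GENCODE annotation of the same build. They run 5′ to 3′ on the gene's own strand, and capitals mark the matches.
Gbp7 (chr3:142530086-142530335, plus strand): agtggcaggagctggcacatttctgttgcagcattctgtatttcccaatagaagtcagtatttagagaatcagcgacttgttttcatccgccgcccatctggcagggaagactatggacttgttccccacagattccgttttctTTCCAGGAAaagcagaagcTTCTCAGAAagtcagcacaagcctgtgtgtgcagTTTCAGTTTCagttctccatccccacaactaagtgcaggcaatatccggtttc
Igtp (chr11:58199306-58199555, plus strand): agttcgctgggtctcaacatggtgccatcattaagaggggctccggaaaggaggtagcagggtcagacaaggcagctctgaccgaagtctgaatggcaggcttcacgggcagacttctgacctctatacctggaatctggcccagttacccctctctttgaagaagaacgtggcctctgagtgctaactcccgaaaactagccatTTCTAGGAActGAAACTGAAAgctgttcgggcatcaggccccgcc
Irf1 (chr11:53769764-53770013, plus strand): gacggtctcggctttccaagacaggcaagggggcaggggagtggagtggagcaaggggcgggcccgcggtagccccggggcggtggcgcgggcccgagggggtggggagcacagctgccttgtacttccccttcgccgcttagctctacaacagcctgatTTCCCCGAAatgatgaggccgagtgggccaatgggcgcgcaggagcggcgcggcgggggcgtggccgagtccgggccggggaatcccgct
Isg15 (chr4:156200819-156201068, minus strand): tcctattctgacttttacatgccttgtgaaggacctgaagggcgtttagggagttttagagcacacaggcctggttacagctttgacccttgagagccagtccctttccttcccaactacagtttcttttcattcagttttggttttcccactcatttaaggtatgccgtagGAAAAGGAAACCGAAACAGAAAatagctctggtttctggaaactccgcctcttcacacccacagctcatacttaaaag
Ifit3 (chr19:34583279-34583528, plus strand): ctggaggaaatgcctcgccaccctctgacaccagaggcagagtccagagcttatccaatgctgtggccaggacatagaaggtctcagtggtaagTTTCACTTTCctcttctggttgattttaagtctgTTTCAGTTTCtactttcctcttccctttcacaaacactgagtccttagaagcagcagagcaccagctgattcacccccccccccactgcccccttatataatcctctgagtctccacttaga
In Gbp7 the ISRE began at position -53, counted from the annotated start, and the GAS matches at -106 and -87. In Igtp the GAS match at -45 and the ISRE at -34 were neighbours. Irf1 held a GAS match at -90 and no ISRE in this window. Isg15 held 3 overlapping ISRE matches, at -78, -72 and -66, and Ifit3 held ISRE matches at -156 and -122. The ISRE of Gbp2, TTTCACTTTC at -59, had the same letters as the Ifit3 match at -156.

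The saline library held 60937359 UMIs (unique molecules counted) in 8396 barcodes and the bleomycin library 134732429 in 10138, with medians of 6762 and 11662 UMIs, and 25 barcodes occurred in both. Cells were clustered without the member genes, and 10 clusters were mesenchymal, with 8084 saline and 9622 bleomycin cells. They are called after marker lists and their leading genes: alveolar fibroblast-like clusters led by Inmt and by Colq, adventitial fibroblast-like clusters led by Pi16 and by Adh7, inflammatory fibroblast-like clusters led by Mmp3 and by Saa3, a fibrotic fibroblast-like cluster led by Cthrc1, and peribronchial or ductal myofibroblast-like, smooth muscle-like and proliferating cell-like clusters. Only 7 of the 10 held at least 50 cells in both libraries. The name of the Mmp3-led cluster is weak, with 5 of 13 inflammatory markers raised. At a finer resolution a cluster of 943 saline and 120 bleomycin cells with Mmp3 among its leading genes matched the alveolar list. Another with Mmp3, of 50 and 1121 cells, matched no list. The Colq-led cluster held 17 bleomycin cells, and the Saa3-led and Cthrc1-led clusters held 22 and 1 saline cells, so each of these may be a library rather than a cell type. Genes of the sorting gate were close to 0 in the mesenchymal cells: Ptprc (CD45) was at 0.0682 CPM (UMIs scaled to a common library total) in saline against 0.169 CPM in bleomycin, and Epcam at 0.170 and 0.284 CPM, while Col1a2, a collagen gene of fibroblasts, was at 1423 and 4143 CPM. Lepr itself was at 62.7 CPM in saline against 11.3 CPM in bleomycin.

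Over all mesenchymal cells the set was lower in the bleomycin library, most of all in its GBP and IRG genes, while the antiviral IFIT and ISG genes differed least. A gene was called when its CPM differed at least 2-fold, reached 10 CPM in the higher library, and had an interval of the ratio clear of 1. By that rule 14 of the 44 genes were lower in bleomycin and 0 were higher, where the background over all 8016 genes reaching 10 CPM was 5.93% lower and 5.56% higher. The ratio of bleomycin to saline was below 1 for 39 of the 44, and 39 reached 10 CPM. The median log2 ratio was -1.94 for GBP genes, -2.04 for IRG genes, -0.96 for regulators, -0.60 for chemokines, -0.87 for class I genes and -0.34 for IFIT and ISG genes, against -0.04 over all 8016 genes. Called were 5 of 6 GBP genes, 3 of 3 IRG genes, 2 of 5 regulators, 0 of 2 chemokines, 4 of 12 class I genes and 0 of 16 IFIT and ISG genes. Near-identical relatives among the GBP, IRG, H2 and Ifit genes can share reads, so the division between single members of these families is uncertain.

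**Figure D1:**
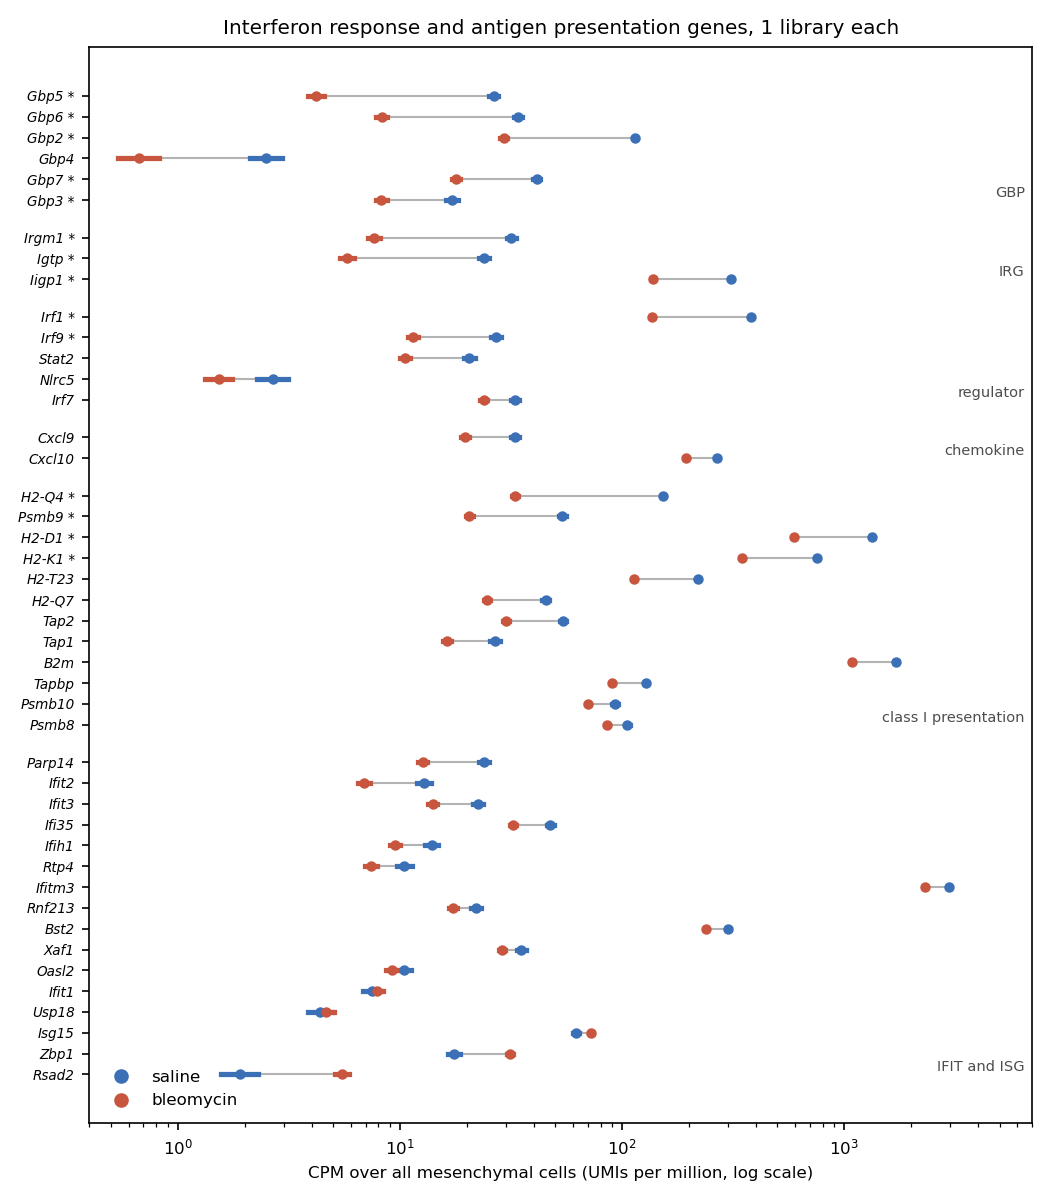
Level of each of the 44 genes in CPM (log scale) over all mesenchymal cells of the saline (blue) and bleomycin (red) library, with 95% Poisson bars and a star on the 14 genes called lower. The red points of all GBP and IRG genes lie left of the blue ones, from Gbp5 (26.4 and 4.18 CPM) to Gbp3 (17.2 and 8.25 CPM), while Isg15, Zbp1 and Rsad2 at the foot lie the other way.

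The GBP genes lie in 2 blocks of mm10, Gbp2, Gbp3, Gbp5 and Gbp7 on chromosome 3 between 142493978 and 142638008, and Gbp4 and Gbp6 on chromosome 5 between 105115767 and 105293698. Gbp2 (ENSMUSG00000028270), the most abundant of them, stood at 114 CPM [111–117] in saline against 29.2 CPM [28.3–30.2] in bleomycin, 3.90-fold lower. Gbp5 (ENSMUSG00000105504), which also promotes inflammasome activity, stood at 26.4 CPM [25.1–27.8] and 4.18 CPM [3.84–4.55], 6.32-fold lower, the widest gap among the 44 over all mesenchymal cells. When the 7 mesenchymal clusters with at least 50 cells in both libraries were weighted in both by their share of saline UMIs (called saline cluster proportions), its ratio was 0.2499, and Cxcl9 (0.138), Gbp4 (0.149), Irgm1 (0.207) and Igtp (0.210) had lower ones. Gbp6 was at 34.1 and 8.28 CPM, or 4.12-fold lower. The remaining called members were Gbp7, at 41.2 and 17.9 CPM, and Gbp3, at 17.2 and 8.25 CPM, which were 2.30-fold and 2.08-fold lower. Gbp4 did not reach 10 CPM, at 2.51 CPM in saline against 0.668 CPM in bleomycin. In no GBP gene did the intervals of the libraries overlap, and saline was always the higher. The summed GBP level was 236 CPM [232–240] in saline against 68.5 CPM [67.1–69.9] in bleomycin, a ratio of 0.291 [0.283–0.299]. Gbp2 gave 48.5% of these UMIs in saline and 42.7% in bleomycin, and the ratio without it was 0.323.

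The IRG genes encode GTPases of the same defence. Igtp (also Irgm3, chromosome 11, 58199556 to 58207591) was at 23.9 CPM [22.6–25.1] in saline against 5.80 CPM [5.39–6.23] in bleomycin, 4.11-fold lower. Irgm1 was at 31.8 CPM [30.3–33.2] and 7.64 CPM [7.17–8.13], 4.16-fold lower. Iigp1 was far more abundant, at 309 CPM [304–313] and 137 CPM [135–139], and 2.25-fold lower. Thus the regulatory GTPases Igtp and Irgm1 showed wider gaps than the effector Iigp1, which supplied 84.7% of the group's UMIs in saline. Of the other GBP and IRG genes on a list of 17, 12 were in the files, 4 reached 10 CPM and 2 were lower: Irgm2 at 18.3 and 4.62 CPM, and Ifi47 at 14.7 and 6.30 CPM. The median log2 ratio over that list was -1.25.

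Among the regulators the largest gap over all mesenchymal cells was in Irf1 (ENSMUSG00000018899, chromosome 11, 53770014 to 53778374), the factor that carries the interferon gamma signal to many of these genes. It stood at 379 CPM [375–384] in saline against 137 CPM [135–139] in bleomycin, 2.77-fold lower. At saline cluster proportions its ratio was 0.720 and the call was lost. Irf9, the DNA-binding member of the type I complex, was at 27.1 CPM [25.7–28.4] and 11.4 CPM [10.8–12], 2.37-fold lower, and its ratio at those proportions, 0.517, was lower than that of Irf1. Its partner Stat2, at 20.5 and 10.6 CPM, was 1.94-fold lower and missed the fold limit, and its ratio at saline proportions was 0.860. Irf7, which amplifies the type I response, was at 32.9 CPM [31.5–34.4] and 23.8 CPM [23–24.6]. Nlrc5, the transactivator of class I genes, was at 2.68 and 1.53 CPM, too low for the rule.

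Interferon ligands were all but absent from the sorted cells. Of 10 ligand genes 0 reached 10 CPM and 7 had no UMI in either library, and Ifng had 2 UMIs in saline while Ifnb1 had 1 in bleomycin. Of 9 receptor and kinase genes 7 reached 10 CPM and 1 was lower: Ifngr1, the ligand-binding chain of the interferon gamma receptor, at 260 CPM [256–264] in saline against 126 CPM [124–128] in bleomycin. Within clusters the gap in Ifngr1 was narrower, with ratios from 0.680 to 1.25 and below 1 in 6 of 7. None of 13 genes for signalling factors and inhibitors was called, though all 13 had ratios below 1. Of 62 other interferon-stimulated genes, 58 were in the files and 26 reached 10 CPM. Among these Helz2 was lower (29.8 and 13.3 CPM), and Slfn2 (1.55 and 14.4 CPM), the lymphocyte chemokine Ccl5 (5.39 and 14.7 CPM) and the thiol reductase Ifi30 (37.5 and 77.4 CPM) were higher in bleomycin.

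Class I presentation genes had ratios below 1 for all 12 members over all mesenchymal cells, and the 4 called lower were 3 heavy chains and Psmb9. Most of these genes lie in the mouse major histocompatibility complex on chromosome 17, here from Tapbp at 33915899 to H2-T23 at 36032855. H2-D1 was at 1337 CPM [1327–1346] in saline against 595 CPM [591–599] in bleomycin, 2.25-fold lower, and H2-K1 at 755 CPM [748–762] and 345 CPM [342–349], 2.19-fold lower. These are the classical heavy chains. H2-Q4, a nonclassical chain, was at 153 CPM [149–156] and 32.9 CPM [31.9–33.9], 4.64-fold lower, a ratio of 0.215 that became 0.390 at saline cluster proportions. H2-Q4 was not called in the Inmt-led alveolar cluster, where the levels were 162 and 87.1 CPM and the ratio 0.537. H2-T23 and H2-Q7 were 1.94-fold and 1.84-fold lower and missed the fold limit. B2m, the light chain that all of them share, was at 1710 CPM [1700–1721] and 1085 CPM [1079–1090], 1.58-fold lower. The summed heavy chains thus had a ratio of 0.443 [0.440–0.446], lower than that of B2m, 0.634 [0.629–0.640].

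Of the immunoproteasome subunits Psmb9 was lower, at 53.8 CPM [52.0–55.7] in saline against 20.5 CPM [19.8–21.3] in bleomycin, 2.62-fold. Psmb8 and Psmb10 had narrower gaps over all mesenchymal cells, at 105 and 85.3 CPM and at 92.9 and 70.0 CPM. At saline cluster proportions their ratios were 0.656 and 0.761, against 0.389 for Psmb9. The median ratios over the 7 clusters held by both libraries were 0.639, 0.617 and 0.366 in the same order. The catalytic subunits of the same particle thus differed in their gaps. Psmb9 and Tap1 are divergent neighbours whose 250-base windows overlap. Tap1, a chain of the peptide transporter, was at 26.8 and 16.3 CPM, Tap2 at 54.3 and 30.1 CPM, and Tapbp (tapasin), which bridges TAP and the heavy chain, at 128 and 90.5 CPM. The summed class I level was 4679 CPM in saline against 2508 CPM in bleomycin, a ratio of 0.536 [0.533–0.539]. On a list of 21 other class I genes, which holds general chaperones and proteasome parts beside further heavy chains, 14 reached 10 CPM, 0 were called, and the median log2 ratio was -0.05. Class II genes were rare in both libraries, and of 8 the invariant chain Cd74 was lower (19.6 and 8.76 CPM) and Ifi30 higher.

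The antiviral genes had the smallest gaps of the 6 groups by the median log2 ratio, and none was called. Ifitm3, which blocks viral entry at endosomes and made up most of the group's UMIs, was at 2959 CPM [2945–2973] in saline against 2314 CPM [2306–2323] in bleomycin. Bst2 (tetherin) was at 301 CPM [297–305] and 239 CPM [237–242]. Isg15, a ubiquitin-like modifier and a standard readout of type I interferon, was at 62.1 CPM [60.1–64.2] and 72.4 CPM [70.9–73.9]. Its ratio was thus above 1 over all cells but below 1 in 6 of the 7 clusters held by both libraries. Ifit1, which binds foreign RNA, was at 7.48 CPM [6.80–8.22] and 7.88 CPM [7.40–8.37], with overlapping intervals. Its neighbours on chromosome 19 were Ifit2, at 12.8 and 6.89 CPM, and Ifit3, at 22.4 and 14 CPM. At saline cluster proportions the ratios were 0.657 for Ifit1, 0.669 for Ifit2 and 0.614 for Ifit3. The summed level was 3552 and 2813 CPM, a ratio of 0.792 [0.788–0.796], and 0.842 without Ifitm3. Of the 16 genes 11 had a ratio below 1. Those above 1 were Isg15, Ifit1, Usp18, Zbp1 (a sensor of Z-form nucleic acid, 17.5 and 31.2 CPM) and Rsad2 (viperin, 1.91 and 5.49 CPM), named after their values were seen. None of the 5 met the rule, and at saline cluster proportions Isg15 (0.824), Ifit1 and Usp18 (0.869) were below 1 while Zbp1 (1.32) and Rsad2 (1.31) stayed above it.

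The 2 chemokines draw T cells through the receptor Cxcr3. Cxcl10 was at 267 CPM [263–272] in saline against 195 CPM [192–197] in bleomycin. Cxcl9, which unlike Cxcl10 depends mainly on interferon gamma, was at 33.0 CPM [31.5–34.5] and 19.6 CPM [18.9–20.4]. Very few cells supplied Cxcl9: 163 saline and 293 bleomycin cells held all of its 1934 and 2553 UMIs, and the 10 richest cells held 43.0% and 47.6% of them. The Poisson interval of such a gene is too narrow, since a single cell gave up to 172 UMIs in saline and 203 in bleomycin. The same holds for Rsad2, whose 714 bleomycin UMIs came from 115 cells, with 90 from 1 cell. Other members were concentrated too. The 10 richest cells held 23.1% and 43.7% of the Gbp4 UMIs in saline and bleomycin, 36.2% and 24.5% for Ifit1, and 19.8% and 23.3% for Ifit3. A single cell gave up to 226 and 459 Cxcl10 UMIs. The intervals of these genes and of the summed chemokine levels are therefore too narrow as well.

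The libraries differed in makeup: the Inmt-led and Colq-led alveolar clusters held 3534 and 1376 saline cells against 504 and 17 bleomycin cells, and the Saa3-led and Cthrc1-led clusters were nearly all bleomycin. Each gene was therefore also compared within the 7 clusters held by both libraries. There 25 of the 44 had a ratio below 1 in every cluster, 16 had an interval below 1 in every cluster, and Gbp2, Gbp5 and Igtp were called lower in every cluster. By group, the ratio was below 1 in every cluster for 6 of 6 GBP genes, 2 of 3 IRG genes, 3 of 5 regulators, 0 of 2 chemokines, 11 of 12 class I genes and 3 of 16 IFIT and ISG genes. The share of all genes that agree across clusters in these ways is not given. The clusters also come from the same 2 libraries, so these counts only describe the 44 genes. Gbp2 was at 227 and 57.7 CPM in the Pi16-led adventitial cluster, 98.9 and 30.3 CPM in the Inmt-led alveolar cluster, and 101 and 48.0 CPM in smooth muscle-like cells, with saline first. Irf1 was at 438 and 349 CPM in the Inmt-led alveolar cluster, a ratio of 0.797, and at 317 and 106 CPM in peribronchial or ductal cells, a ratio of 0.335. The gap in Irf1 was thus narrow in the cluster that held most saline cells, and its median ratio over the clusters was 0.574 against 0.361 over all cells.

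The number of genes called varied with the cluster. In peribronchial or ductal myofibroblast-like cells 26 of the 44 were lower and 0 higher, where the background was 6.70% lower and 6.55% higher. In proliferating cell-like cells, with only 53 cells in saline, 26 were lower and 0 higher (background 7.76% and 3.84%). In the Mmp3-led cluster 18 were lower and 0 higher (background 2.54% and 2.18%), and in the Adh7-led adventitial cluster 16 and 0 (background 3.38% and 2.96%). In the Inmt-led alveolar cluster 11 were lower and 0 higher (background 1.71% and 1.26%). The Pi16-led adventitial cluster had 8 lower and 1 higher (background 3.83% and 3.67%), and smooth muscle-like cells 7 lower and 1 higher (background 2.42% and 4.76%). The gene called higher was Rsad2 in both of these, with 3 saline and 105 bleomycin UMIs in the Pi16-led cluster, a ratio of 17.8 [5.91–87.5], and 9 and 57 UMIs in smooth muscle-like cells. In a cluster of alveolar epithelial genes, outside the mesenchyme, 5 were lower and 2 higher (background 5.57% and 8.88%).

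**Figure D2:**
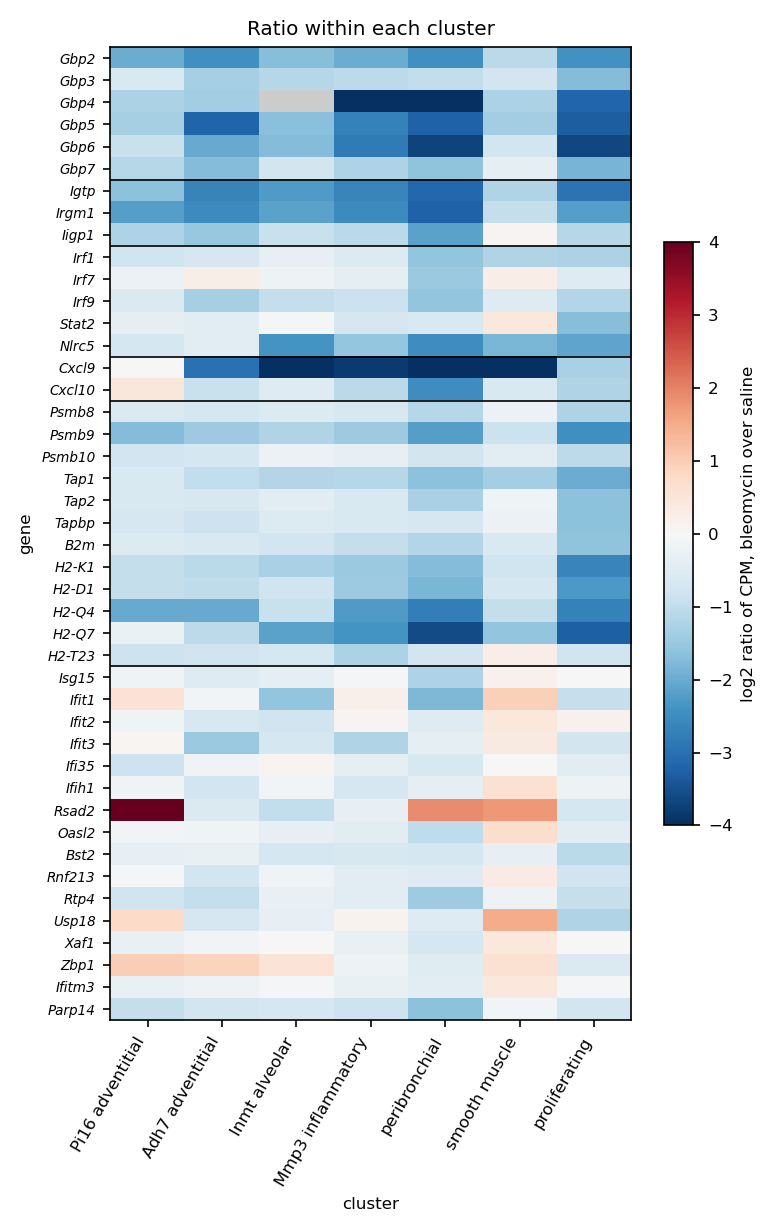
Log2 ratio of CPM, bleomycin over saline, for each of the 44 genes (rows, in groups parted by black lines) in the 7 clusters held by both libraries (columns), with colours ending at 4 and -4 and grey where a library had no UMI (Gbp4 in the Inmt-led alveolar cluster). The GBP rows are blue across the columns, and so are the class I rows apart from H2-T23, which has a highest ratio of 1.19, with peribronchial and proliferating cells deepest, while the IFIT and ISG rows mix blue and red, with Rsad2 at a ratio of 17.8 in the Pi16-led cluster and smooth muscle-like cells mostly red.

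Levels also differed among cell classes within a library. In saline the summed GBP level was highest in peribronchial or ductal cells, at 394 CPM [365–425], followed by the Pi16-led adventitial cluster at 341 CPM [324–359] and the Adh7-led one at 310 CPM [296–325], whose intervals overlapped. It was lowest in smooth muscle-like cells, at 190 CPM [174–207], and in the Colq-led alveolar cluster, at 110 CPM [103–118]. In bleomycin the order changed and the range shrank, from 114 CPM [107–121] in the Pi16-led adventitial and 102 CPM [94.0–111] in smooth muscle-like cells, which overlapped, to 48.0 CPM [44.3–52.0] in proliferating and 41.7 CPM [38.8–44.7] in Cthrc1-led fibrotic cells, which overlapped as well. Among mesenchymal clusters with at least 50 cells, every bleomycin cluster but the Pi16-led adventitial and smooth muscle-like ones had an interval below that of the Colq-led saline cluster. The GBP gap was narrowest in smooth muscle-like cells, at a ratio of 0.539, and widest in proliferating cells, at 0.181. In saline the Colq-led cluster, lowest in GBP level, had the highest summed regulator level, at 610 CPM [594–628]. Irf1 gave 82.0% of the regulator UMIs over all saline mesenchymal cells.

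Chemokine levels were the most uneven. In saline, peribronchial or ductal cells held 1230 CPM [1177–1284] of Cxcl9 and Cxcl10 together, against 662 CPM in proliferating cells, 553 CPM in the Mmp3-led cluster and 65.1 CPM in the Colq-led cluster. In bleomycin the peribronchial or ductal level was 213 CPM [201–225], a ratio of 0.173. Cxcl10 alone was at 1198 and 212 CPM there. Cxcl9 was lower in 6 of the 7 clusters, with ratios from 0.0212 to 0.411, and about equal in the Pi16-led cluster at 25.9 and 26.3 CPM. Its smaller gap over all cells went with the Saa3-led and Cthrc1-led clusters, which held 66.5% of the bleomycin UMIs of Cxcl9 and 0.724% of the saline ones. These clusters held 3291 and 1036 of the 9622 bleomycin mesenchymal cells, and large shares were common to the members. Among the other members their share of the bleomycin UMIs ran from 32.9% (Gbp5) to 59.8% (Rsad2).

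Class I levels were highest in saline in proliferating cells, at 7824 CPM [7640–8012], and in the adventitial clusters, at 6020 CPM (Adh7-led) and 5623 CPM (Pi16-led), and lowest in smooth muscle-like cells, at 2591 CPM [2531–2651]. In bleomycin the adventitial clusters were the highest, at 3272 and 3267 CPM with overlapping intervals, and peribronchial or ductal cells were lowest at 1644 CPM. The class I ratio ran from 0.253 in proliferating to 0.660 in smooth muscle-like cells and was below 1 in 7 of 7 clusters. For IFIT and ISG genes it ran from 0.704 in peribronchial or ductal cells to 1.27 in smooth muscle-like cells, where the level was 2247 CPM in saline against 2861 CPM in bleomycin, with Ifitm3 at 1757 and 2364 CPM. Without Ifitm3 the smooth muscle-like ratio was 1.01 [0.949–1.08]. The Saa3-led cluster held 3042 CPM and the Cthrc1-led cluster 1801 CPM of these genes in bleomycin. Among mesenchymal clusters with at least 50 bleomycin cells, the Cthrc1-led cells had the lowest bleomycin level of GBP, IRG, regulator and IFIT and ISG genes, though without Ifitm3 peribronchial or ductal cells were the lowest for IFIT and ISG genes (311 against 386 CPM).

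**Figure D3:**
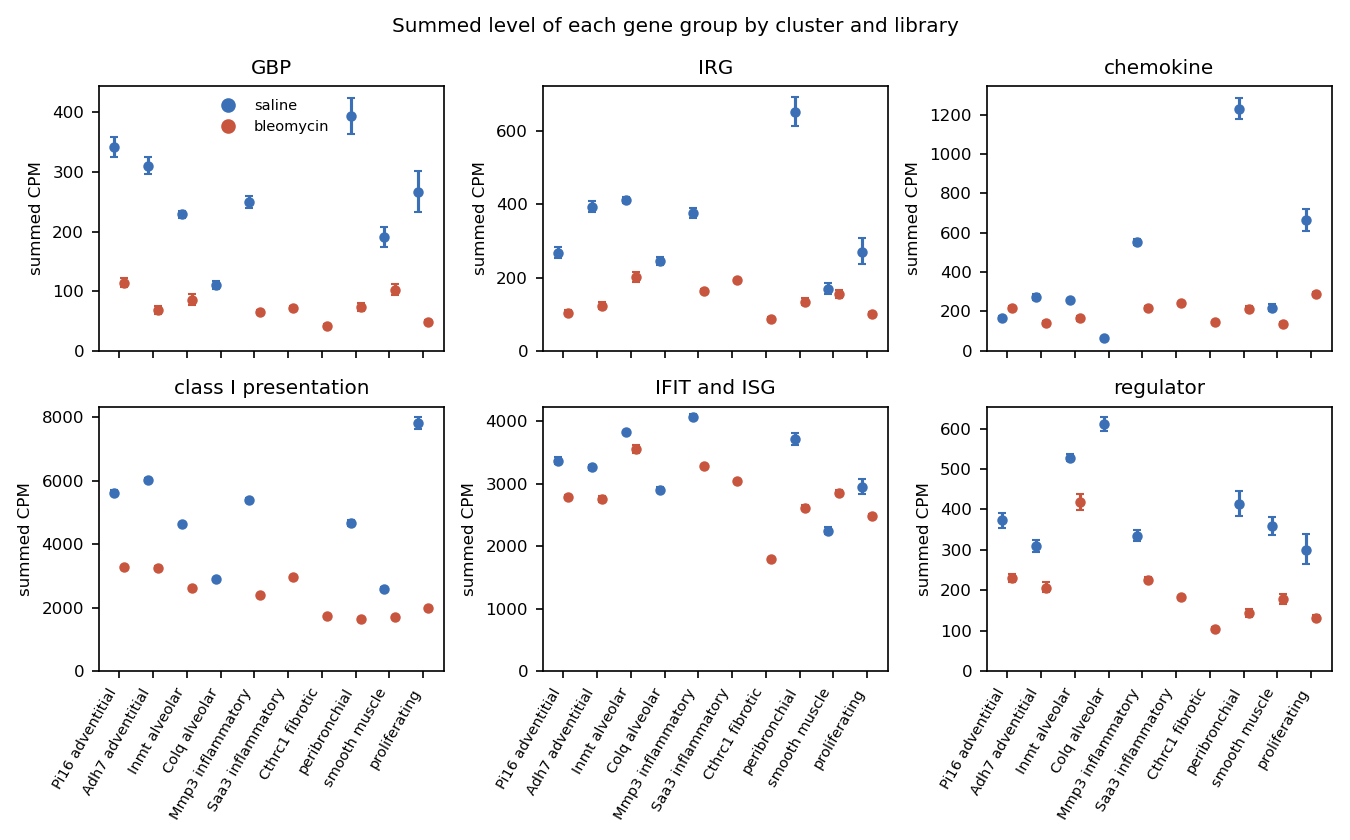
Summed CPM of each gene group (panels) in the mesenchymal clusters with at least 50 cells of that library, saline in blue and bleomycin in red, with 95% Poisson bars. Red lies below blue in every shared cluster for GBP and class I genes, while the chemokine panel has a saline peak of 1230 CPM in peribronchial cells and the IFIT and ISG panel shows the reverse order in smooth muscle-like cells, where the ratio without Ifitm3 was 1.01.

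To compare cells at equal depth, each cell was thinned to 2000 UMIs, which left out 144 saline and 153 bleomycin cells. A UMI of Gbp2 was then found in 16.2% [15.4–17.1] of saline and 5.56% [5.10–6.04] of bleomycin cells, where the unthinned shares were 37.7% and 25.2%. For Irf1 the shares were 46.1% and 23.2%, and unthinned 75.8% and 63.1%. H2-Q4 was found in 24% and 7.47%, and unthinned in 52.1% and 29.1%. Lower levels of these genes thus went with fewer cells having a UMI. Isg15 was found in 8.72% [8.10–9.36] and 9.20% [8.62–9.80] of thinned cells, and in 20.8% and 30.0% unthinned, so its larger unthinned share in bleomycin was not seen at equal depth. Zbp1 was found in 3.0% and 5.34% of thinned cells, with 9.30% and 25.4% unthinned. No class here should lack these genes, so no cluster measures RNA outside cells. The alveolar epithelial cluster gave Gbp2 in 3.81% [1.05–9.47] of 105 saline and 2.88% [0.790–7.20] of 139 bleomycin cells. Median depths there were 5849 and 7976 UMIs. The bleomycin share of Gbp2 in mesenchymal cells lies within those intervals, but these are wide. The part of RNA outside cells in the shares was not tested.

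**Figure D4:**
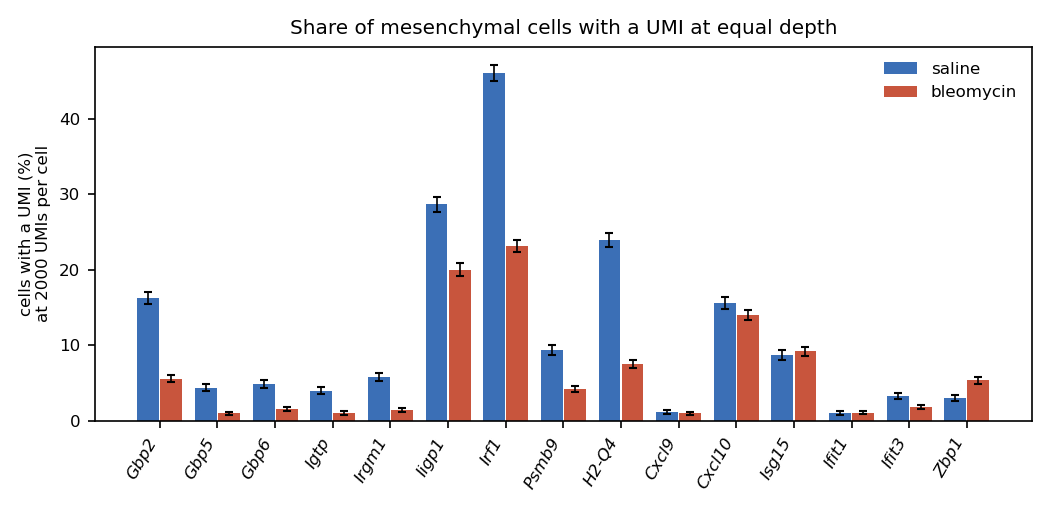
Share of mesenchymal cells with a UMI of 15 of the genes after thinning to 2000 UMIs per cell, with exact 95% binomial bars, saline in blue and bleomycin in red. Gbp2 stands at 16.2% and 5.56% and Irf1 at 46.1% and 23.2%, Isg15 and Ifit1 have overlapping bars, and Zbp1 is taller in bleomycin.

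Cells with a strong response were rare in both libraries. At equal depth 1.15% [0.924–1.41] of saline and 0.972% [0.784–1.19] of bleomycin cells had a Cxcl9 UMI, and 1.99% [1.69–2.32] and 1.92% [1.66–2.22] had UMIs of at least 2 of the 7 genes Isg15, Ifit1, Ifit2, Ifit3, Rsad2, Usp18 and Oasl2. In both measures the intervals of the libraries overlapped. Cells with at least 1 of these 7 genes were 15.54% [14.75–16.36] in saline and 13.3% [12.62–14] in bleomycin, with saline higher. Cells with at least 1 GBP gene were 28.2% and 12.1%. Those with at least 2 GBP genes were 5.55% [5.06–6.08] in saline and 1.225% [1.013–1.468] in bleomycin. In the Cxcl9-positive cells every one of the 6 GBP genes was higher than in the other cells of the same library, with median ratios of 3.83 in saline and 4.05 in bleomycin. The class I genes had medians of 2.59 and 1.91. Of the 5 regulators, 3 had intervals above 1 in saline and 2 in bleomycin. Irf1 was not higher in the Cxcl9-positive cells, with ratios of 0.868 [0.775–0.968] in saline and 0.886 [0.771–1.01] in bleomycin. These cells also held more antiviral RNA, with intervals above 1 for 14 of the 16 IFIT and ISG genes in saline and 16 of 16 in bleomycin, and median ratios of 2.17 and 3.25. In saline Ifit1 was at 11.2 CPM against 7.43 CPM and Zbp1 at 101 against 16 CPM, and in bleomycin Ifit1 was at 66.1 against 7.08 CPM and Zbp1 at 82.5 against 30.4 CPM. In the cells with at least 2 of the 7 genes all 6 GBP genes were higher as well, with median ratios of 4.68 in saline and 8.06 in bleomycin. The class I medians there were 1.895 and 2.11. Irf1 had ratios there of 1.13 [1.03–1.23] in saline and 1.11 [0.998–1.22] in bleomycin. The Cxcl9-positive cells were deeper (medians of 9627 against 6807 UMIs in saline and 17428 against 11878 in bleomycin) and more of them had a leukocyte marker UMI (29.7% against 10.9%, and 27.2% against 19.2%), and the part of these in the ratios was not tested. Among the 7 shared clusters the share of Cxcl9-positive cells ran in saline from 0.573% in smooth muscle-like cells to 8.51% of 47 proliferating cells. In bleomycin it ran from 0% to 2.07%. The part of this makeup in the ratios was not tested either. The share of all genes with intervals above 1 in the chosen cells is not given, so these counts only describe the members.

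Across the 17 cluster and library points with at least 50 cells, the member whose level most resembled the summed GBP level was Igtp (Pearson r = 0.959 on log2 of CPM plus 10), followed by Psmb10 (0.903), and the least alike were Zbp1 (-0.167) and Rsad2 (-0.207). Outside the lists the most alike genes were Peli1, a ubiquitin ligase (0.931), Mier3 (0.920), the ETS factor Elf1 (0.920), Zbtb21 (0.901) and Eif3j2 (0.897). The points share libraries and depths, so these values are a description.

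Other measures moved with the same contrast. Markers of leukocytes were low in both libraries, highest in the B or plasma cell list at 31.8 CPM in saline against 37.0 CPM in bleomycin with 1 of 11 genes reaching 10 CPM (Igkc, at 22.9 and 29.1 CPM). The summed macrophage list was at 18.3 CPM in saline against 19.6 CPM in bleomycin with 1 of 13 genes reaching 10 CPM (Lyz2), the T or NK cell list at 1.53 and 2.59 CPM with 0 of 13, the neutrophil list at 1.38 and 10.9 CPM with 0 of 10, and the dendritic cell list at 11.1 and 29.8 CPM with 1 of 11 (Batf3). Marco and Adgre1 were at 0 in saline, and Siglech in both. Without the 888 saline and 1825 bleomycin cells holding a UMI of Ptprc, Cd3e, Cd79a, Csf1r, Lyz2, C1qa, Cd74 or Tyrobp, the same 14 genes were called and the GBP ratio was 0.297. Of 15 genes induced by tissue dissociation 14 had ratios below 1 and 4 were called lower, such as Egr1 (2114 and 849 CPM) and Jun (3069 and 1528 CPM), and the part of this in the result was not tested. Of 4 genes that depend on strain or sex and reached 10 CPM, 2 were lower: Cwc22 at 82.2 and 7.75 CPM and Tpm3-rs7 at 101 and 1.88 CPM. H2 genes also vary between strains, and with 1 library per treatment a difference in strain background and the treatment cannot be told apart.

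The calls rest on how cells are weighted. At saline cluster proportions Gbp7, Irf1, Irf9 and H2-D1 were no longer called and Cxcl9, Tap1 and H2-Q7 (a ratio of 0.301) were, while Nlrc5 had a ratio of 0.319. With every cell weighted equally, Gbp3, Gbp7, H2-K1 and H2-D1 were no longer called.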

How the data were processed

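Single-cell libraries of sorted cells, 1 from saline-treated and 1 from bleomycin-treated mice, were described from the raw UMI counts per gene and cell that the authors deposited. They were made with Cell Ranger 6.1.2 on mm10, per the submitters' processing notes. The 44 genes, their groups and all other lists were chosen with earlier results of these data known.

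Cells with at least 500 genes and at most 10% mitochondrial UMIs were kept. Scrublet (in scanpy 1.11.5, expected rate 7%) marked 83 saline cells (0.994%), which were removed, and 1 bleomycin cell (0.01%), so it did not work on that library and doublets stay in it. Cells were clustered together from 2000 variable genes, less 42 member and pathway genes, with 30 components, 15 neighbours and the Leiden method at resolution 0.5 (igraph 0.11.9). A cluster took a name when at least 3 markers of a list were raised 1.5-fold, and clusters may differ from the study's own. Clusters of epithelial, mesothelial and endothelial genes, and 1 of macrophage and immunoglobulin genes, were left out, which left 58665711 saline and 130156065 bleomycin UMIs.

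UMIs were summed per library or cluster and scaled to that sum of all genes (CPM). Intervals are exact Poisson for CPM, exact conditional binomial for ratios, and Clopper-Pearson for shares of cells. The size rule (a fold of 2, 10 CPM, interval clear of 1) was tried on simulated counts with planted folds beyond the limit and counting error only. These counts hold no spread between cells or animals, so the trial cannot show how often real libraries give false calls. Values are given in full for genes meeting it and for the 2 members of each group with the most UMIs, and pathway genes outside the 44 are named where they meet it. The alternatives were a stricter cell filter, resolution 1, TMM scaling (edgeR 4.0.16), leaving out cells with high doublet scores or with leukocyte UMIs, per-cell means, saline cluster proportions, other limits, and scores without their most abundant member.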

Additional observations from a re-analysis of the deposited data

Results flagged for a closer look

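These are ratios of group levels in clusters outside the mesenchyme, singled out because they have intervals above 1 in cells that the comparisons above do not use. In the cluster of alveolar epithelial genes, with 112 saline and 158 bleomycin cells, the summed class I level was 3627 CPM in saline against 4564 CPM in bleomycin, a ratio of 1.258 [1.202–1.317]. Chemokines there were at 46.4 and 73.7 CPM, a ratio of 1.589 [1.067–2.424]. H2-K1 was at 817 and 1396 CPM there. In the mesothelial gene cluster, with 42 and 117 cells, the summed IFIT and ISG level was 3658 and 4392 CPM, a ratio of 1.201, and 0.834 without Ifitm3. Regulators there were at 281 and 376 CPM, a ratio of 1.341 [1.105–1.638]. In a cluster led by the immunoglobulin genes Igkc and Igha, with 18 and 71 cells, the summed IFIT and ISG level was 808 and 1537 CPM, a ratio of 1.901, and the chemokine level 63.6 and 174 CPM, a ratio of 2.731 [1.291–6.921]. The cluster led by Igkc and Igha also had 13 of 13 macrophage markers raised, so it mixes genes of more than 1 kind of leukocyte. The sort was set against epithelial cells and leukocytes, and what the cells of these clusters are was not tested.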

How the results depend on the processing

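No paired analysis was possible because each treatment has 1 library. The GBP ratio of 0.291 was 0.310 with TMM scaling, 0.328 as a mean over cells, 0.322 at saline cluster proportions and 0.323 without Gbp2. The IFIT and ISG ratio of 0.792 was 0.845, 0.813 and 0.892 under the first 3 of these, 0.797 without the highest doublet scores and 0.842 without Ifitm3. The class I ratio of 0.536 was 0.571, 0.599 and 0.529 under those 3, 0.543 without cells with leukocyte UMIs and 0.479 without B2m. All stayed below 1, and the stricter filter and resolution 1 moved no ratio beyond its counting interval. The count of 14 genes called lower was 13 with TMM scaling (without Gbp3), 10 as a mean over cells, 13 at saline proportions, of which 10 were among the 14, 15 without a minimum CPM and 24 at a fold of 1.5. The shares of all genes called lower and higher moved as well, from 5.93% and 5.56%. They were 4.67% and 5.18% as a mean over cells and 1.51% and 1.54% at saline proportions. Without a minimum CPM they were 8.38% and 7.77%, and at a fold of 1.5 they were 15.2% and 12.3%. The count called higher was 1 without a minimum (Rsad2) and 1 at a fold of 1.5 (Zbp1), and 0 under the other alternatives. TMM scaling moved the median log2 ratio of all genes by 0.09, and the shares of all genes called were then 4.69% lower and 6.53% higher. Depth limits Gbp4, Nlrc5, Ifit1, Usp18 and Rsad2, which stayed under 10 CPM in both libraries.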

Other observations

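At the finer resolution of 1 a cluster of 682 saline and 32 bleomycin cells matched no marker list and was led by Rbp4, Cxcl5 and Cxcl9. In its saline cells the summed GBP level was 417 CPM, the chemokine level 681 CPM and the class I level 6886 CPM, where all saline mesenchymal cells were at 236, 300 and 4679 CPM.

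In the mesothelial gene cluster the summed GBP level was 874 CPM [789–965] in saline against 497 CPM [465–532] in bleomycin, above every mesenchymal cluster of the same library with at least 50 cells.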
